A study of Homo sapiens with 6 samples.

Results

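The 10 genes described here encode 7 Eph receptors (EPHA2, EPHA3, EPHA4, EPHA7, EPHB2, EPHB3 and EPHB4) and 3 of their ligands, the ephrins EFNA1, EFNB1 and EFNB2, and were found by symbol among the 63086 genes of the count table. They belong to a family of 22 human genes, 14 receptors and 8 ephrins, and the other 12 are described after them. The genes were picked with their difference between DUS1L knockout and wild-type A375 cells already known, in particular a higher EPHA2 beside a lower EPHA3, so their own values are given as a description, without a test. A375 is an established line grown from a human melanoma, with activated BRAF. RNA was sequenced from 3 biological replicates of DUS1L knockout cells, made with CRISPR/Cas9 aimed at DUS1L and then selected as clones, and from 3 of wild-type cells, which were grown alongside and not edited. DUS1L encodes a tRNA enzyme, a dihydrouridine synthase. Because knockout cells had been cloned and wild-type cells had not, and their number of clones is not known here, the edit and the cloning cannot be told apart in any difference below.

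Eph receptors are receptor tyrosine kinases whose ligands, the ephrins, are held on the surface of neighbouring cells, so that signalling needs contact between cells. A ephrins are attached to the membrane by a lipid anchor and bind mainly EphA receptors, while B ephrins cross the membrane and bind mainly EphB receptors. Binding sends a forward signal into the cell with the receptor and a reverse signal into the cell with the ephrin, which steers cell repulsion, adhesion and migration. The family guides the neural crest cells from which melanocytes arise, and EPHA2 is often abundant in invasive melanoma.

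The libraries held 17121315 to 18861514 estimated counts, and 16046 genes passed the filter on low counts. DUS1L itself was at 55.4, 54.7 and 53.1 CPM in knockout libraries, against 79.95, 75.7 and 77.0 CPM in wild-type libraries, or 54.4 ± 1.15 CPM in knockout cells and 77.6 ± 2.17 CPM in wild-type cells (SD, n = 3 each; CPM is the count relative to the scaled library size). It was lower in every knockout library than in every wild-type library (log2 fold change -0.51, adjusted p = 1.7e-06, edgeR quasi-likelihood test with Benjamini-Hochberg adjustment). Wild-type replicate 1 stood apart from the other wild-type libraries on the second principal component, which held 13.7% of the variance, and without it the log2 fold change of EPHA2 was 1.01. The neural crest factor SOX10, a melanoma marker, was at 481 ± 33.8 CPM in knockout cells and 604 ± 16.9 CPM in wild-type cells (SD, n = 3 each), whereas the pigment gene TYR was at 0 in all 6 libraries. Of 7 endothelial markers, looked at because EFNB2 and EPHB4 are also vessel genes, TEK, CLDN5 and ERG had no more than 3 counts in any library, and the list summed to 2.18 to 4.16 CPM in knockout libraries and 3.00 to 3.84 CPM in wild-type libraries. Summed markers of epithelium, mostly KRT18, were at 571 to 592 CPM in knockout libraries and 485 to 532 CPM in wild-type libraries. Among these markers KRT18 rose and CLDN4 fell (log2 fold change 0.22 and -0.72, edgeR adjusted p = 0.00152 and 5.88e-05). KRT8 was not called, and CDH1 had no more than 3 counts in any library. Summed fibroblast markers, mostly COL1A1, were at 64.3 to 122 CPM in knockout libraries and 28.5 to 78.3 CPM in wild-type libraries. COL1A1 was at 29.2, 100.8 and 28.5 CPM in knockout libraries, against 4.70, 15.9 and 37.7 CPM in wild-type libraries. It was not called (adjusted p = 0.311, edgeR), nor was any other tested gene of that list. Of 12 melanoma and neural crest markers, 11 were above 3 counts in some library, and their sum was 993 to 1054 CPM in knockout libraries and 1109 to 1147 CPM in wild-type libraries. They did not move together: of 8 tested, SOX10, ERBB3, MIA and S100B fell, 2 were not called, and AXL and NGFR rose (edgeR). AXL was at 262 ± 11.7 CPM in knockout cells and 176 ± 19.9 CPM in wild-type cells (SD, n = 3 each). The part of these lists in the results below was not tested.

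EPHA2, which binds A ephrins and can also signal without ligand in tumour cells, had the highest level of the family and the greatest positive log2 fold change among the 10 genes. Its gene is ENSG00000142627.13 (chromosome 1, 16124337 to 16156069, minus strand; GRCh38 and GENCODE release 44, as for all positions here). It was at 324, 318 and 312 CPM in knockout replicates 1 to 3, against 144, 155 and 161 CPM in wild-type replicates 1 to 3. The lowest knockout library stood well above the highest wild-type library, and the knockout libraries lay closer to each other than the wild-type ones. The log2 fold change of knockout over wild-type was 1.05 (SE 0.05), a 2.07-fold higher level. The antisense gene EPHA2-AS1, which overlaps it, had 5 to 15 counts in knockout libraries and 1 to 14 counts in wild-type libraries. In bulk RNA a change in the share of cells that express a gene and a change in RNA per cell cannot be told apart, here and for every gene below.

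EPHA3, an EphA receptor that binds A ephrins and occurs in melanoma, went the other way. Its gene is ENSG00000044524.11 (chromosome 3, 89107621 to 89482134, plus strand). It was at 18.7, 18.2 and 18.7 CPM in knockout libraries, against 32.3, 36.2 and 30.7 CPM in wild-type libraries. The knockout libraries were almost level and all below the lowest wild-type library. The log2 fold change was -0.84 (SE 0.09), a 1.79-fold lower level.

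The 250 bases upstream of the RefSeq start sites of these opposed receptors are printed because they are the pair on which the description turns (RefSeq table, GRCh38.p14, each read 5′ to 3′ along its gene). EPHA2 is from chr1:16156070-16156319, minus strand, and EPHA3 from chr3:89107371-89107620, plus strand. Capitals mark matches, on either strand, to 4 short motifs: TGACTCA (bound by AP-1 factors), TGACGTCA (the cyclic AMP response element), GGAATG (bound by TEAD factors) and GAANNTTC (a core of the heat shock element).
EPHA2: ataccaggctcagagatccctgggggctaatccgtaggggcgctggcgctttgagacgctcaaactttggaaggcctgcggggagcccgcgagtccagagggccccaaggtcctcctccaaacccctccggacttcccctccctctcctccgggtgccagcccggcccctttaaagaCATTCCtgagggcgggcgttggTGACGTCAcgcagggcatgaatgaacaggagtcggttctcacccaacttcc
EPHA3: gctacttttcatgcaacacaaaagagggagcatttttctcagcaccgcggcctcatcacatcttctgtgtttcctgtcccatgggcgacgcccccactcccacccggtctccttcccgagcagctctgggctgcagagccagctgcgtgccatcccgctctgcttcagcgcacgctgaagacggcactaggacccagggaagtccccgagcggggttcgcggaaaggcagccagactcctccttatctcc
The EPHA2 window held TGACGTCA from 51 to 44 bases upstream of the start and GGAATG, on the opposite strand, from 73 to 68 bases upstream, and the matches do not overlap. Among the 35116 windows of the same length in the table, TGACGTCA occurred in 1.65%, GGAATG in 11.9%, TGACTCA in 4.20% and GAANNTTC in 5.78%. The EPHA3 window held none of these letters. Windows were on hand for all 10 genes, 14 in all since some genes have several starts, and no other of the 14 held a match. Their GC content ran from 43.2% to 84.8% with a median of 69.8%, against a median of 58.0% over all windows. All 14 had a ratio of observed to expected CpG above the median of all windows, which was 0.558. A match is a run of letters, not a shown binding site.

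The remaining EphA receptors were present at much lower counts. EPHA7 (ENSG00000135333.15; chromosome 6, 93240020 to 93419687, minus strand), an EphA receptor best known from brain development, was at 2.60, 2.66 and 3.05 CPM in knockout libraries, against 6.23, 7.05 and 8.32 CPM in wild-type libraries. Every knockout library was below every wild-type library, and the log2 fold change, -1.38 (SE 0.20), was the most negative of the 10. EPHA4 (ENSG00000116106.12; chromosome 2, 221418027 to 221574202, minus strand), which is unusual in binding ephrins of both classes, was at 11.2, 10.9 and 9.14 CPM in knockout libraries, against 8.88, 8.13 and 8.26 CPM in wild-type libraries. The groups did not overlap, but knockout replicate 3 lay near wild-type replicate 1, and the log2 fold change was 0.31 (SE 0.14). So among the EphA receptors of the 10, the abundant EPHA2 was higher in knockout cells, and EPHA3 and EPHA7 were lower. The scarcer EPHA4 had a positive log2 fold change but was not called in the fit over all genes.

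**Figure D1:**
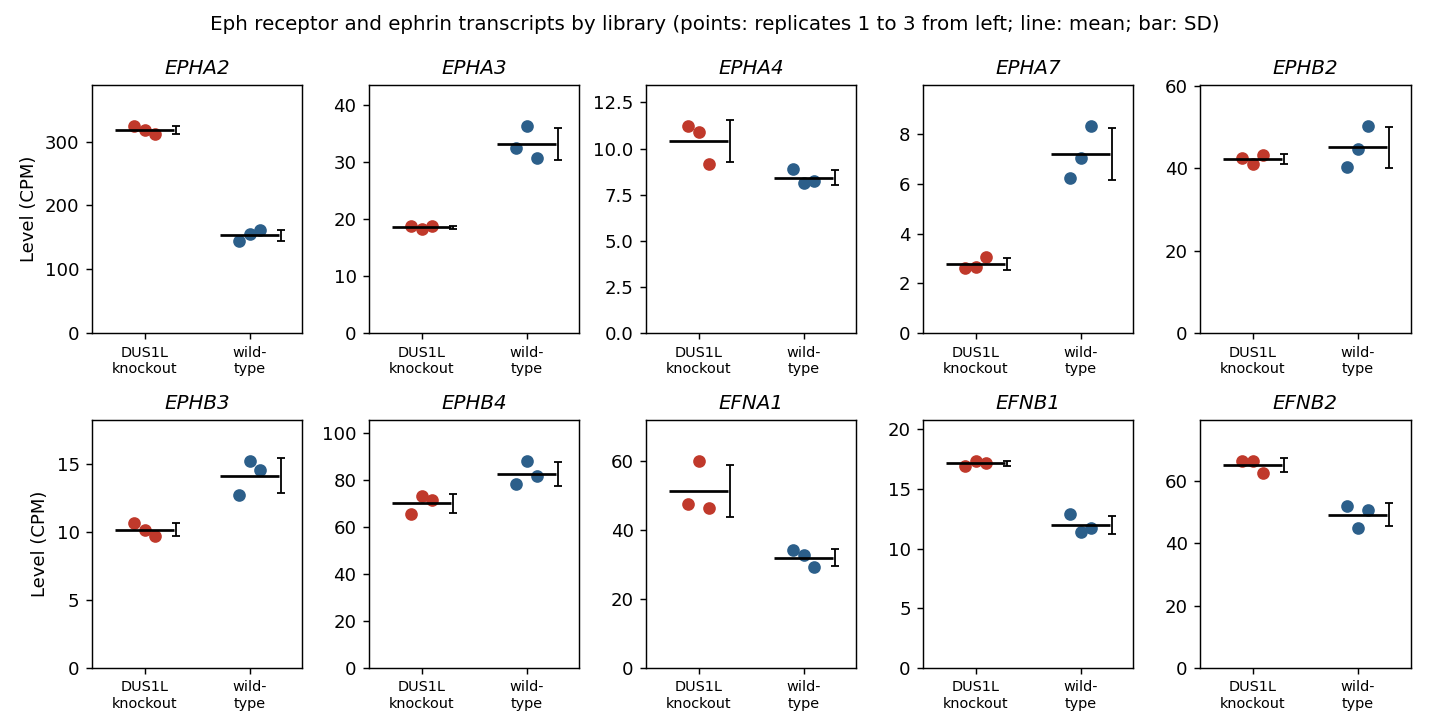
Level of each of the 10 genes in CPM by library, with 3 DUS1L knockout libraries at the left and 3 wild-type libraries at the right of each panel. Lines are means and bars are SD; axes start at 0. EPHA2 stands at 312 to 324 CPM in knockout libraries against 144 to 161 CPM in wild-type libraries, EPHA3 is lower in all knockout libraries, and only EPHB2 has groups that overlap.

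The 3 EphB receptors all had a negative log2 fold change, smaller in size than those of EPHA2, EPHA3 and EPHA7. EPHB4 (ENSG00000196411.10; chromosome 7, 100802565 to 100827523, minus strand), whose main ligand is ephrin-B2, was at 65.5, 72.9 and 71.6 CPM in knockout libraries, against 78.1, 88.0 and 81.6 CPM in wild-type libraries. The groups did not overlap, and the log2 fold change was -0.24 (SE 0.07). EPHB4 overlaps SLC12A9, a transporter gene of the opposite strand, at its start; the strand setting of the counting was not given, so shared reads cannot be assigned. SLC12A9 was at 19.8 ± 2.01 CPM in knockout cells and 22.1 ± 0.30 CPM in wild-type cells (SD, n = 3 each), with log2 fold change -0.16 (SE 0.10, adjusted p = 0.213, edgeR).

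EPHB3 (ENSG00000182580.3; chromosome 3, 184561785 to 184582408, plus strand), a receptor for B ephrins known from the ordering of cells in the intestinal crypt, was at 10.7, 10.2 and 9.70 CPM in knockout libraries, against 12.7, 15.2 and 14.5 CPM in wild-type libraries. All knockout libraries were lower, and the log2 fold change was -0.47 (SE 0.12). EPHB2 (ENSG00000133216.17; chromosome 1, 22710839 to 22921500, plus strand), another receptor for B ephrins, was at 42.5, 41.0 and 43.3 CPM in knockout libraries, against 40.5, 44.6 and 50.3 CPM in wild-type libraries. Wild-type replicate 1 was below all knockout libraries, so the groups overlapped, and the log2 fold change was -0.09 (SE 0.08).

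The 3 ephrins were all higher in knockout cells. EFNA1 (ENSG00000169242.12; chromosome 1, 155127876 to 155134899, plus strand), an A ephrin that is a chief ligand of EPHA2, was at 47.5, 60.0 and 46.4 CPM in knockout libraries, against 34.2, 32.6 and 29.2 CPM in wild-type libraries. Knockout replicate 2 was the highest library, and the other knockout libraries also lay above all wild-type ones. The log2 fold change was 0.68 (SE 0.10), and 0.55 without knockout replicate 2. EFNB1 (ENSG00000090776.6; chromosome X, 68829021 to 68842160, plus strand), a B ephrin whose loss causes a disorder of the skull in people, was at 16.9, 17.3 and 17.2 CPM in knockout libraries, against 12.9, 11.4 and 11.7 CPM in wild-type libraries. Here the knockout libraries were nearly level and all higher, with a log2 fold change of 0.52 (SE 0.11). EFNB2 (ENSG00000125266.8; chromosome 13, 106489745 to 106535662, minus strand), the ligand of EPHB4 on arteries, was at 66.4, 66.5 and 62.6 CPM in knockout libraries, against 52.1, 45.0 and 50.6 CPM in wild-type libraries. The groups did not overlap and the log2 fold change was 0.41 (SE 0.07). EFNB2 had fractional estimated counts in all 6 libraries and EPHA4 in 1 library; the other 8 genes had whole counts.

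In the fit over all genes, 8 of the 10 genes had an adjusted p under 0.05 (edgeR), 4 higher and 4 lower, and EPHA4 and EPHB2 did not. EPHB4 was no longer called without knockout replicate 1, and EPHA4 was called without knockout replicate 3 and with library size alone as scaling. Over all 16046 tested genes the share was 41.2%, with 20.5% higher and 20.7% lower. The 3 knockout libraries lay wholly to 1 side of the 3 wild-type libraries for 9 of the 10 genes and for 51.1% of all tested genes. Since the genes were chosen on this very comparison, nothing is read from these counts. All 10 passed the filter on low counts. The median log2 fold change was 0.11 over the 10 genes and 0.00 over all tested genes.

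The libraries of knockout cells were closer to each other than those of wild-type cells for most of these genes. The coefficient of variation between replicates was smaller in knockout than in wild-type cells for 8 of the 10, the exceptions being EPHA4 and EFNA1. Its median was 4.12% in knockout cells and 7.78% in wild-type cells. Over the 11600 tested genes whose mean was at least 5 CPM, the medians were 5.58% in knockout cells and 6.49% in wild-type cells. The coefficient was smaller in knockout cells for 57.3% of them. Since the 10 genes were chosen on these same libraries, nothing is read from their spread.

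Among the 12 family genes outside the 10, 7 passed the filter, and of these 1 rose and 3 fell (edgeR, adjusted p under 0.05), 4 of 7 against 41.2% of all genes. The receptor EPHB1, which binds B ephrins, was at 14.1, 14.0 and 14.7 CPM in knockout libraries, against 6.70, 7.53 and 9.60 CPM in wild-type libraries. The groups were far apart and EPHB1 rose (log2 fold change 0.84, SE 0.14, adjusted p = 5.35e-05, edgeR), so the EphB receptors as a class were not uniformly lower. EFNB3, a B ephrin of the nervous system, was at 2.71, 5.37 and 3.67 CPM in knockout libraries, against 7.58, 8.67 and 9.01 CPM in wild-type libraries. EFNB3 fell (log2 fold change -1.11, SE 0.21, adjusted p = 0.000226, edgeR), in the opposite direction to EFNB1 and EFNB2.

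Of the A ephrins outside the 10, EFNA3 and EFNA4 fell. EFNA3 was at 4.68, 8.09 and 8.01 CPM in knockout libraries, against 10.8, 10.95 and 10.7 CPM in wild-type libraries, with knockout replicate 1 well below the rest (log2 fold change -0.65, SE 0.17, adjusted p = 0.00513, edgeR). Without knockout replicate 1 its log2 fold change was -0.43 (adjusted p = 0.0359, edgeR). EFNA4 was at 11.7 CPM in each knockout library, against 13.9, 15.1 and 15.5 CPM in wild-type libraries (log2 fold change -0.34, SE 0.11, adjusted p = 0.0217, edgeR). That call was lost without knockout replicate 1 or 3 (adjusted p = 0.0567 and 0.0523) and without wild-type replicate 2 or 3 (adjusted p = 0.062 and 0.0708). EFNA5, a ligand of EPHA3 among others, was at 9.79 ± 1.04 CPM in knockout cells and 11.9 ± 0.69 CPM in wild-type cells (SD, n = 3 each; log2 fold change -0.28, SE 0.13, adjusted p = 0.0848, edgeR). EFNA2 was below 1.1 CPM in every library and was not called (log2 fold change 0.57, SE 0.48, adjusted p = 0.377, edgeR).

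**Figure D2:**
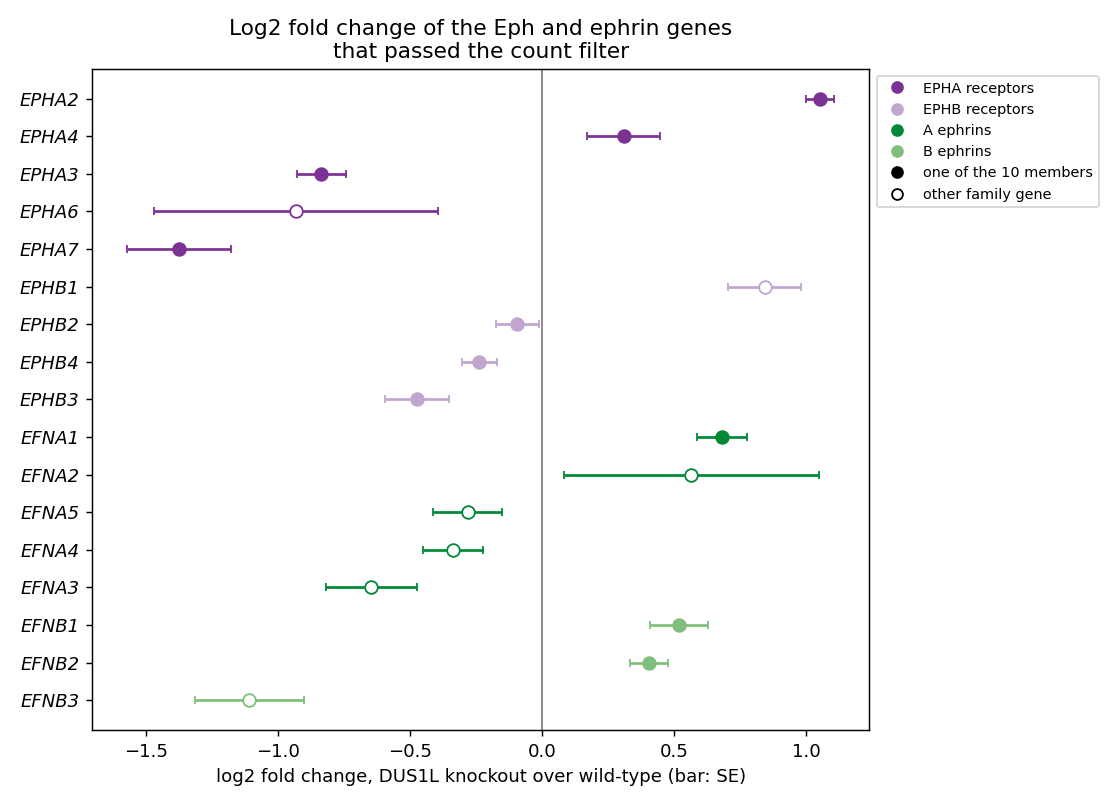
Log2 fold change of DUS1L knockout over wild-type, with its SE as a bar, for the 17 Eph and ephrin genes that passed the count filter, grouped as EphA and EphB receptors and A and B ephrins. Filled points are the 10 genes chosen with their values known and open points the other family genes; each of the 4 classes has points on both sides of 0.

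EPHA6 was not called (adjusted p = 0.176, edgeR), and its level was near the lowest that could be read. It had 19, 4 and 4 counts in knockout libraries and 18, 14 and 18 counts in wild-type libraries, so knockout replicate 1 decides the value. Without it the log2 fold change was -2.03 (adjusted p = 0.0198, edgeR), against -0.93 with all libraries. The other 5 family genes were set aside by the filter. EPHA5 had 14, 2 and 5 counts in knockout libraries and 0 in each wild-type library, where a count of 0 allows up to 3 counts, or 0.163 to 0.176 CPM. EPHA8 had 15, 9 and 14 counts in knockout libraries and 4, 0 and 3 counts in wild-type libraries, EPHB6 had at most 7 counts and EPHA1 at most 4 counts in any library, and EPHA10 was at 0 in all 6. These 5 genes were not compared.

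Levels of different genes were compared per length, as RPKM (CPM per kilobase of annotated exon). In knockout cells the order of the 10 was EPHA2, EFNA1, EFNB2, EPHB4, EFNB1, EPHB2, EPHA3, EPHB3, EPHA4 and EPHA7, and no neighbours in this order overlapped in their 3 libraries. EPHA2 was at 76.8 ± 1.44 RPKM, EFNA1 at 23.7 ± 3.50 RPKM and EPHA7 at 0.168 ± 0.015 RPKM in knockout cells (SD, n = 3). In wild-type cells the order was EPHA2, EFNA1, EPHB4, EFNB2, EPHA3, EFNB1, EPHB2, EPHB3, EPHA4 and EPHA7, where EFNA1 and EPHB4, EFNB1 and EPHB2, and EPHB2 and EPHB3 overlapped in their libraries. EPHA2 was at 37.1 ± 2.05 RPKM, EFNA1 at 14.8 ± 1.17 RPKM and EPHA7 at 0.437 ± 0.064 RPKM in wild-type cells (SD, n = 3). EPHA3 was thus the 7th of the 10 in knockout cells and the 5th in wild-type cells. Among 13497 tested protein-coding genes, EPHA2 was at percentile 96.8 of mean RPKM in knockout cells and 91.7 in wild-type cells, and EPHA3 at percentile 35.9 in knockout cells and 50.1 in wild-type cells. The ephrins stood higher among all genes in knockout cells. EFNA1 was at percentile 86.3 in knockout cells and 77.5 in wild-type cells, EFNB2 at 74.4 in knockout cells and 67.4 in wild-type cells, and EFNB1 at 50.4 in knockout cells and 42.0 in wild-type cells. The 3 EphB receptors stood lower, with EPHB4 at percentile 70.0 in knockout cells and 74.2 in wild-type cells.

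**Figure D3:**
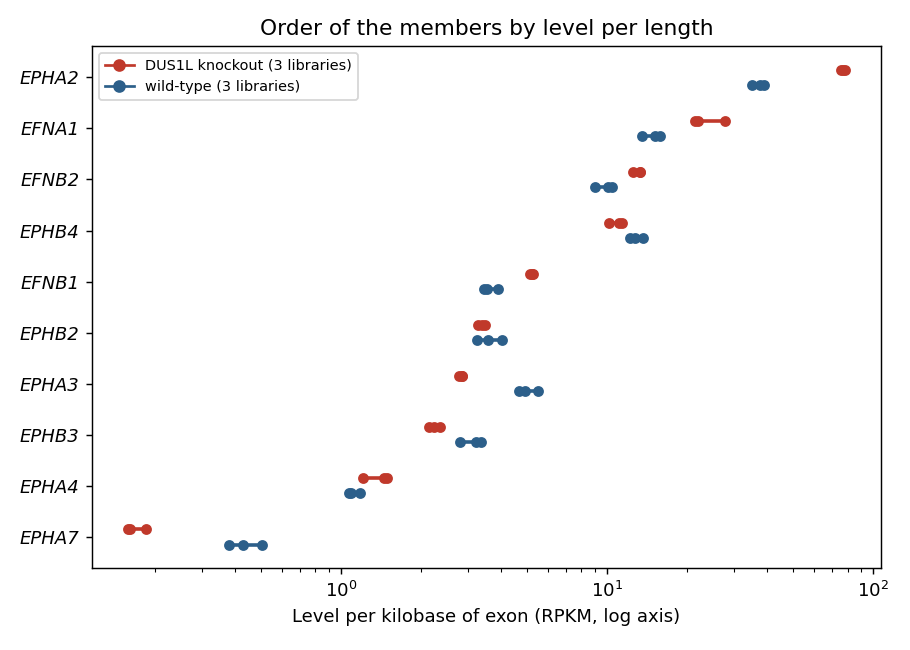
Level per kilobase of exon (RPKM, log axis) of the 10 genes, ordered by the mean in knockout cells; points are libraries and lines span the 3 libraries of a genotype, with DUS1L knockout above wild-type in each row. EPHA2 is the highest and EPHA7 the lowest in both genotypes, and EPHA3 stands above EFNB1 and EPHB2 in wild-type cells but below both in knockout cells.

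The make-up of the receptor pool differed between the genotypes. The summed level of all 14 receptors was 100.4 ± 1.19 RPKM in knockout cells and 64.7 ± 3.36 RPKM in wild-type cells (SD, n = 3 each). EPHA2 made up 77.2%, 76.3% and 76.1% of it in knockout libraries, against 57.3%, 56.3% and 58.2% in wild-type libraries. Without EPHA2, the other 13 summed to 23.6 ± 0.34 RPKM in knockout cells and 27.6 ± 1.54 RPKM in wild-type cells, so that sum was the lower one in knockout cells. The ratio of EPHA2 to EPHA3 per length was 27.5, 27.8 and 26.6 in knockout libraries, against 7.10, 6.79 and 8.34 in wild-type libraries.

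Ephrins showed a smaller difference in total. All 8 summed to 55.0, 63.4 and 55.8 RPKM in knockout libraries, against 51.3, 50.2 and 50.1 RPKM in wild-type libraries. EFNA1 made up 40.7% ± 2.74 of the sum in knockout cells and 29.2% ± 2.06 in wild-type cells (SD, n = 3 each). EFNA1, EFNB1 and EFNB2 together made up 72.2% ± 1.73 in knockout cells and 55.9% ± 2.45 in wild-type cells. These shares restate the values by which the genes were chosen and carry no test.

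**Figure D4:**
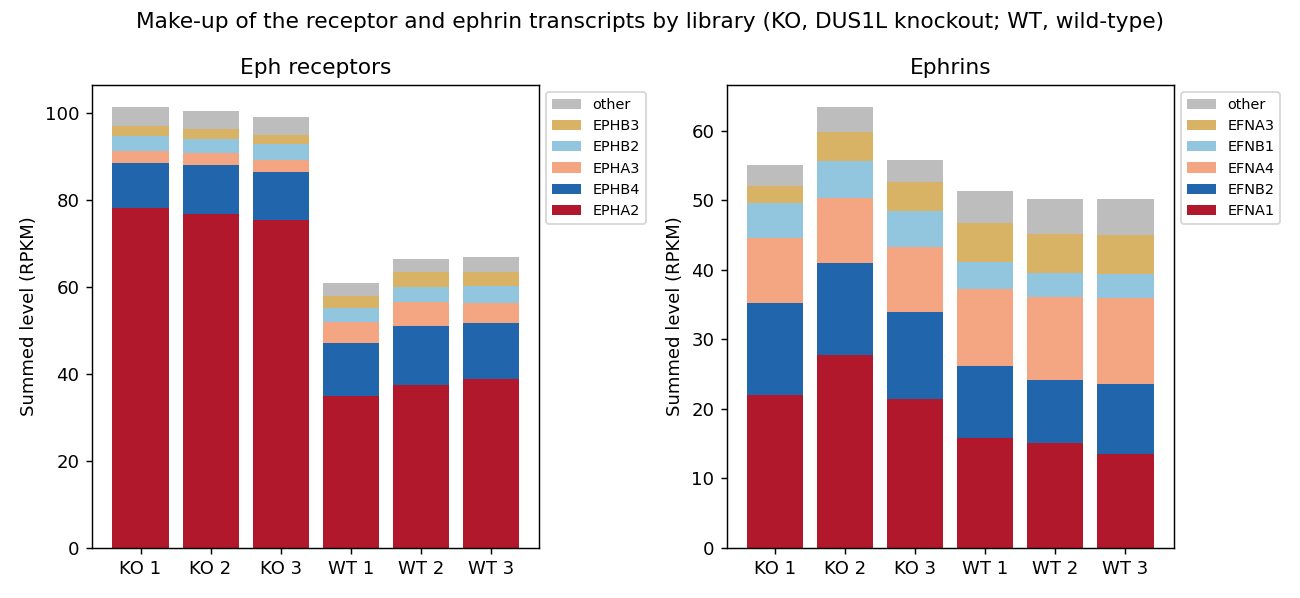
Summed level (RPKM) of Eph receptors, at left, and of ephrins, at right, stacked by gene for each library, with 3 DUS1L knockout libraries (KO) left of 3 wild-type libraries (WT). The EPHA2 segment fills 76.1% to 77.2% of the receptor bar in knockout libraries and 56.3% to 58.2% in wild-type libraries, while the EFNA1 segment is the largest of the ephrin bar in all 6.

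The genes lie on 7 chromosomes, and genes around them did not share a direction with them throughout. Within 500 kb of the 10 start sites lay 118 tested genes outside the 10, with 24 higher, 28 lower and 66 not called (edgeR), 44.1% called against 41.2% of all genes. EPHA3, EPHA4 and EPHA7 had no tested gene in that window. For scale, 20.5% of all tested genes were higher and 20.7% were lower. Around EPHA2, 5 of 21 tested genes were higher, 1 was lower and 15 were not called, with a median log2 fold change of 0.10. Around EPHB4, in a gene-dense stretch, 10 of 37 tested genes were higher, 7 were lower and 20 were not called. Around EPHB3, 2 of 15 were higher, 5 lower and 8 not called.

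EFNA1 stands in a cluster on chromosome 1 beside EFNA3 and EFNA4, which both fell while EFNA1 was higher. EFNA4 lies from 155063737 to 155069553 and EFNA3 from 155078837 to 155087538, on the same strand as EFNA1 and upstream of it, and their start sites are 64.1 and 49.0 kb from that of EFNA1. Of 35 tested genes within 500 kb of EFNA1, EFNA3 and EFNA4 included, 3 were higher, 13 were lower and 19 were not called. Over all tested genes 20.5% were higher and 20.7% lower. The median log2 fold change of the 35 was -0.28, against 0.68 for EFNA1. An annotated read-through gene of EFNA4 and EFNA3 was at 0 in all libraries.

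**Figure D5:**
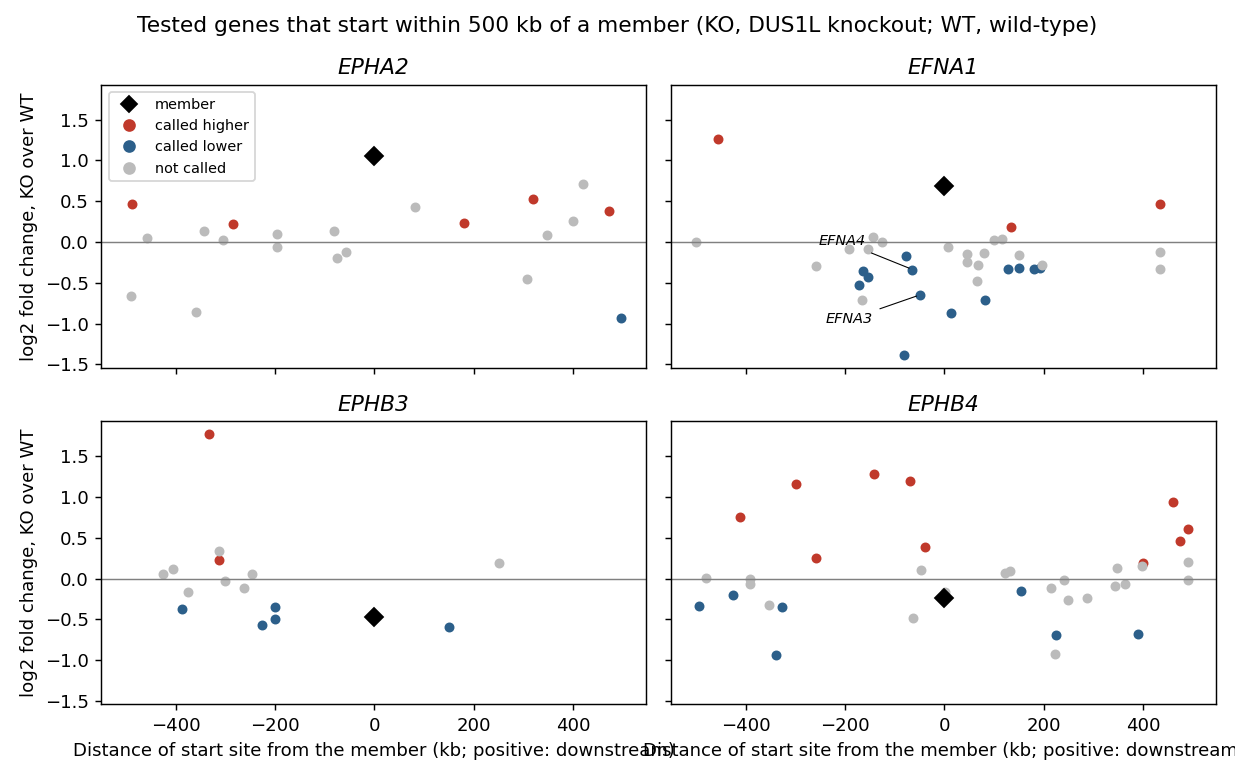
Log2 fold change of DUS1L knockout over wild-type for tested genes that start within 500 kb of EPHA2, EFNA1, EPHB3 and EPHB4, against the distance of their start site in kb along the strand of that gene (positive is downstream). Diamonds are the named gene, red points genes called higher, blue points genes called lower and grey points genes not called. EFNA1 stands above 0 among 13 genes called lower, with EFNA3 and EFNA4 marked.

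Genes whose values ran most like those of EPHA2 and EPHA3 over the 6 libraries were found by Euclidean distance between centred log2 CPM values, among 11022 other protein-coding genes whose mean was at least 5 CPM. Closest to EPHA2 were SLC7A5, an amino acid transporter (distance 0.124), TNFAIP2 (0.145) and PTPRK, a receptor tyrosine phosphatase (0.149). PTPRK was at 70.4, 67.5 and 68.4 CPM in knockout libraries, against 34.3, 35.6 and 37.1 CPM in wild-type libraries. Closest to EPHA3 were STN1, a telomere replication factor (distance 0.084), KAZALD1 (0.085) and UBE2C, a ubiquitin-conjugating enzyme of mitosis (0.105). UBE2C was at 115, 118 and 112 CPM in knockout libraries, against 203, 215 and 192 CPM in wild-type libraries. In these the genotypes separated as in EPHA2 and EPHA3, as the measure requires.

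Genes that act beside the receptors and ephrins were taken from 5 lists of 76 genes, of which 75 were tested. Of these 17 rose, 19 fell and 39 were not called (edgeR), 48.0% called against 41.2% of all genes, and the median log2 fold change was 0.01. Of the 36 calls, 20 held under all 12 alternative settings, 10 higher and 10 lower. For each list, genes whose calls held throughout come first. Beyond the 4 genes with the smallest p in a list, further genes are named because they were called, a choice made after their values were seen.

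Forward signalling, through the adaptors, regulators of small GTPases and kinases that receptors recruit, was covered by 36 genes, of which 35 were tested. Of these 8 rose, 5 fell and 22 were not called, 37.1% called against 41.2% of all genes. The median log2 fold change was 0.01. ABL2, a cytoplasmic kinase related to ABL1 that remodels the actin skeleton, rose to 341 ± 18.0 CPM in knockout cells, against 134 ± 12.6 CPM in wild-type cells (SD, n = 3 each; log2 fold change 1.35, SE 0.06, adjusted p = 1.61e-11, edgeR). The adaptors CRK, BCAR1 and CRKL rose by 0.49, 0.44 and 0.26 on the log2 scale (edgeR adjusted p = 2.64e-06, 9.67e-06 and 0.00263). VAV3, an exchange factor that acts downstream of EPHA2, fell to 0.757 ± 0.135 CPM in knockout cells, against 3.07 ± 1.01 CPM in wild-type cells (SD, n = 3 each; log2 fold change -2.01, SE 0.34, adjusted p = 7.69e-05, edgeR). TIAM1, an exchange factor for RAC1, and PAK1, a kinase activated by RAC1, fell by 0.66 and 0.29 on the log2 scale (edgeR adjusted p = 0.000105 and 0.000516). The calls of GRB2, GRB7, PIK3R1 and ROCK2 (higher) and of RASA1 and RAC1 (lower) were each lost under some alternative, with adjusted p up to 0.161 among the alternatives.

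Enzymes that end the signal, phosphatases and ubiquitin ligases, changed in 4 of 9 genes, 2 higher and 2 lower. The share called was 44.4%, against 41.2% of all genes, and the median log2 fold change was 0.06. PTPRK rose (log2 fold change 0.95, SE 0.07, adjusted p = 1.45e-09, edgeR), and the ubiquitin ligase gene CBLB fell (log2 fold change -0.41, SE 0.11, adjusted p = 0.00373, edgeR). INPPL1, a lipid phosphatase that binds EPHA2, fell by 0.20 on the log2 scale, a call lost without knockout replicate 3 (adjusted p = 0.0561, edgeR). Without that library 2 genes of this list were called. PTPN1, with log2 fold change 0.14, was called by the main test (adjusted p = 0.0323, edgeR) but lost under 7 of the 12 alternatives, with adjusted p up to 0.159.

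Proteases that shed or cut Eph receptors and ephrins changed in 6 of 11 genes, 1 higher and 5 lower. The share called was 54.5%, against 41.2% of all genes, of which 20.5% were higher and 20.7% lower. The median log2 fold change of the list was -0.08. MMP14, a membrane metalloprotease that cuts EPHA2, fell to 110 ± 6.32 CPM in knockout cells, against 165 ± 8.69 CPM in wild-type cells (SD, n = 3 each; log2 fold change -0.58, SE 0.06, adjusted p = 1.68e-07, edgeR). ADAM10, which releases A ephrins bound by their receptor, fell by 0.28 on the log2 scale (SE 0.07, adjusted p = 0.00249, edgeR). PSENEN, a subunit of gamma-secretase, fell by 0.41 on the log2 scale (edgeR adjusted p = 0.000306). The lower calls of APH1A and APH1B were lost under some alternative, with adjusted p up to 0.055 for APH1A and 0.0889 for APH1B among the alternatives.

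Partners of the B ephrin tail changed in 7 of 12 genes, 5 higher and 2 lower. The share called was 58.3%, against 41.2% of all genes, of which 20.5% were higher and 20.7% lower. The median log2 fold change of the list was 0.19. SDCBP, a PDZ protein that binds the tail end of B ephrins, rose to 255 ± 4.97 CPM in knockout cells, against 199 ± 13.2 CPM in wild-type cells (SD, n = 3 each; log2 fold change 0.35, SE 0.06, adjusted p = 2.76e-05, edgeR). RGS3, which links B ephrins to G proteins, and STAT3 rose by 0.33 and 0.21 on the log2 scale (edgeR adjusted p = 0.00201 and 0.007). The scaffold gene CNKSR1 rose to 3.27 ± 0.29 CPM in knockout cells, against 1.36 ± 0.46 CPM in wild-type cells (SD, n = 3 each; adjusted p = 0.00168, edgeR). GRIP1, another PDZ protein of the B ephrin tail, fell to 4.17 ± 0.89 CPM in knockout cells, against 8.29 ± 0.68 CPM in wild-type cells (SD, n = 3 each; adjusted p = 0.000194, edgeR). TJP1 (higher) and PTPN13 (lower) lost their calls under some alternative, with adjusted p up to 0.128 for TJP1 and 0.0875 for PTPN13 among the alternatives.

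Among 8 kinases that phosphorylate EPHA2 on serine, 1 was called higher and 5 lower (75.0% called), against 20.5% higher and 20.7% lower over all genes, with a median log2 fold change of -0.17. Of these 6 calls, 2 held under every alternative, those of RPS6KA1 and AKT1. RPS6KA1, which encodes the kinase RSK1 of the MAPK pathway, fell to 64.1 ± 6.14 CPM in knockout cells, against 88.3 ± 2.19 CPM in wild-type cells (SD, n = 3 each; log2 fold change -0.46, SE 0.07, adjusted p = 1.86e-05, edgeR). AKT1 fell by 0.20 on the log2 scale (SE 0.06, adjusted p = 0.00821, edgeR). The lower calls of AKT2 and PRKACA and the higher call of RPS6KA2 were lost under some alternative, with adjusted p up to 0.111 among the alternatives. Of this list, 2 genes were called without knockout replicate 1, and 3 without wild-type replicate 2, without wild-type replicate 3 or when scaled by library size alone.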

How the data were processed

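Paired-end RNA-seq libraries from 3 DUS1L knockout and 3 wild-type cultures were compared. The values the authors deposited are estimated counts for each gene, which need not be whole, with no normalization recorded; the build was GRCh38, per the submitters' processing notes, and the aligner, counter, strand setting and annotation are not given in the sources used here. Symbols, positions and exon lengths came from GENCODE release 44, which matched 62541 of 63086 identifiers.

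Estimated counts were rounded, filtered with filterByExpr (minimum count 10), scaled by TMM and tested with a robust quasi-likelihood fit in edgeR 4.0.16 (R 4.3.3), with group as the only term and Benjamini-Hochberg adjustment over 16046 genes at a threshold of 0.05, two-sided. P-values measure the spread between cultures described as biological replicates. Genes, lists and tests were chosen with earlier results of these data known. The rule for named genes takes the 10 genes, DUS1L, the tested family genes, up to 4 genes of each list by p, and the 3 nearest genes to EPHA2 and to EPHA3; overlapping genes were added. RPKM used the union of exons. A count of 3, the floor, was 0.159 to 0.176 CPM and covers counting error only. Distances used log2(CPM + 0.5). Alternatives were RLE or no scaling, no filter, DESeq2 1.42.0, limma-voom (limma 3.58.1), a replicate block and leaving out each library. Protein sequences were not used here, and some list genes are counted but not reported singly here.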

Additional observations from a re-analysis of the deposited data

How the results depend on the processing

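Each count kept within 1.5 times its main value under RLE scaling, library size alone, no filter, DESeq2, limma-voom and a replicate block, except the serine kinases of EPHA2, with 6 called in the main fit and 3 with library size alone. Leaving out each library in turn gave 2 to 5 called serine kinases. It gave 2 to 5 called phosphatase and ubiquitin ligase genes, against 4 in the main fit. Each such refit also had fewer libraries, and the cause was not tested. The log2 fold changes of the 10 genes moved by less than the spread between replicates (1 SD, log2) in all 120 refits. Leaving out 1 of 3 libraries shifts a group mean by less than that spread by arithmetic alone. The refits without 1 library could therefore hardly fail this measure, and nothing is read from their passing it. No log2 fold change of the 10 genes changed sign. EPHA2 ran from 1.01 to 1.10 and EPHA3 from -0.89 to -0.77. Library size alone moved the median log2 fold change of all genes to 0.04. Taking the longest transcript as length exchanged EPHB4 and EFNB2 in the knockout order and EPHB2 and EFNB1 in the wild-type order. Replicate numbers did not pair the libraries: deviations from the group mean of same-numbered libraries correlated at -0.030, -0.0014 and 0.026 across genes, and knockout replicates 1 and 2 correlated best with another number. With the replicate block, 3122 genes were higher and 3119 lower, against 3288 and 3320 in the main fit, 4 other family genes were called, and PTPN1, RASA1, GRB2 and TJP1 were among those not called. Depth limits EPHA1, EPHA5, EPHA6, EPHA8, EPHA10, EPHB6 and EFNA2.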
